A study of Mus musculus with 10 samples.

Results

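The transcription factor genes Ebf1, Ebf2, Ebf3, Ebf4, Zfp423, Zfp521, Bcl11a, Bcl11b and Klf7 were followed in trigeminal ganglia of mouse embryos with and without Prdm12. They were chosen by name, as 9 of the 55414 gene IDs counted. Total RNA of the whole dissected ganglion was sequenced in 10 libraries, and the labels name no cell sorting. The 5 knockout libraries (replicates 16, 29, 42, 49 and 50) carry the genotype Prdm12-/-; Sox10 Venus+. The 5 wild-type libraries (replicates 22, 24, 32, 35 and 45) carry Prdm12+/+; Sox10 Venus+. All embryos were of strain C57Bl6 at day E13.5, so the Sox10 Venus marker is common to both groups. No label states that a library is an embryo of its own, so the p-values measure the spread between these libraries, part of which may be technical. Titles open with another letter in each group, and handling marked by that letter cannot be told apart from genotype.

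Ebf proteins (the COE family) bind DNA as dimers through a zinc-binding knuckle rather than classical zinc fingers, and they act in B cell, fat cell, olfactory and neuronal differentiation. Zfp423 and Zfp521 carry long arrays of C2H2 zinc fingers and bind Ebf1, whose activity they restrain; Zfp423 also links Smad proteins to BMP target genes. Bcl11a and Bcl11b are C2H2 zinc finger repressors that recruit the NuRD and BAF chromatin complexes, and Bcl11b is known as a fate regulator of T cells and of cortical projection neurons. Klf7, a Krüppel-like factor of GC-rich and CACCC sequences, is known in mice for roles in axon growth and in sensory neuron development. Prdm12 is a PR domain protein on which nociceptor formation depends.

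Promoter sequences are given for Ebf3, Bcl11a and Klf7, because the levels of Ebf3 and Bcl11a stood highest in the same knockout library and Klf7 marked another set of libraries (values further on). They come from RefSeq windows of 250 bases before a gene start on build GRCm38.p6, written 5′ to 3′ on the gene's strand and ended before any annotated exon. Such windows were used for 7 of the 9 genes, 9 windows in all, with none for Ebf2 and Zfp521. The chromosome that holds Zfp521 was left out for the 9 genes, but not for the windows of all genes. Ebf3 lies on the minus strand, with the stretch at chr7:137314446-137314695. Bcl11a lies on the plus strand, at chr11:24080445-24080669. Klf7 lies on the minus strand, at chr1:64121492-64121639. Capitals mark, on either strand, the Ebf core CCCNNGGG, the GC box GGGCGG and the CACCC box CACCC, which can overlap.
Ebf3: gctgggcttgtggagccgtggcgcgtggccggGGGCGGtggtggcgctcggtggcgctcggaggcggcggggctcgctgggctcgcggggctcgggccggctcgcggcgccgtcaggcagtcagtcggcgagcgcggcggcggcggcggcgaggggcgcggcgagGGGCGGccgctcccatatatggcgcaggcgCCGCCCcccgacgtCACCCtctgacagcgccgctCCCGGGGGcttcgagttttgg
Bcl11a: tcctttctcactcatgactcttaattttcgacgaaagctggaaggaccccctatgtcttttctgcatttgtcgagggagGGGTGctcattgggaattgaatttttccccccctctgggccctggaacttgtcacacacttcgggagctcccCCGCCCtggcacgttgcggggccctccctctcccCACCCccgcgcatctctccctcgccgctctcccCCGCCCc
Klf7: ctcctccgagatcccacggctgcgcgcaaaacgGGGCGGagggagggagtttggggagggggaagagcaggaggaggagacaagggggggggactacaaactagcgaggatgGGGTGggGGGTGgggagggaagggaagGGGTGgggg
Over the whole 250-base windows, the GC box was in 6 of the 9 windows and in 32.7% of 32851 windows of all genes. The CACCC box was in 9 of 9 and in 52% of all windows. The Ebf core was in 3 of 9, those of Ebf3, Zfp423 and Bcl11b, and in 11.8% of all windows. The E-box CAGATG was in 2 of 9, both of Zfp423, and in 14.4% of all windows. Ebf1 and Zfp423 each count with 2 windows. Annotated exons held all 250 bases of 1 Ebf1 window, 188 of the Bcl11b, 102 of the Klf7 and 25 of the Bcl11a window. The other Ebf1 window ended 1533 bases from the nearest annotated start of the gene. These are matches of letters, with no measurement of binding.

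Libraries held 27308327 to 33556002 counts each, apart from 13603690 in knockout 29 and 3258008 in knockout 49. Prdm12 was at 8.74 to 42.7 CPM (read counts scaled to a common library total, with TMM factors) in knockout libraries and at 74.3 to 264 CPM in wild-type libraries, with the highest knockout value in knockout 29 (log2 fold change -3.32, SE 0.49, edgeR adjusted p = 0.0156). Marker lists of a ganglion were expressed in every library, with scores (the mean log2 CPM of a list) of 8.51 to 9.35 in knockout and 8.84 to 9.75 in wild-type libraries for general neuronal markers, and of 6.22 to 7.32 in knockout and 5.99 to 6.81 in wild-type libraries for glia. Some libraries stood apart. Knockout 16 had the highest score of central nervous system markers, 3.35, against -1.71 to 1.10 in the other knockout libraries and -2.40 to 1.49 in wild-type libraries. Of the 14 markers, 9 passed the filter on low counts and 0 were called by edgeR. Pax2, the first listed, was at 53.6 CPM in knockout 16, at 0.178 to 8.89 CPM in the other knockouts and at 0 to 13.4 CPM in wild types. Otp and Olig1 were the listed markers not highest in knockout 16. Otp was at 0.0889 CPM there and 12.4 CPM in knockout 50, and Olig1 at 0.800 CPM there and 1.58 CPM in wild-type 45. Pax3 was at 38.6 CPM in knockout 16 and nearly as high, 37.5 CPM, in knockout 29. Wild-type 32 and 35 had the lowest mesenchyme scores, 4.95 and 5.42, against 6.51 to 8.23 in knockout libraries and 7.38 to 7.91 in the other wild types. They also had the highest neuronal scores, 9.73 and 9.75, and the lowest central nervous system (-2.12 and -2.40), endothelial (4.46 and 4.80), macrophage (2.23 and 2.31) and BMP gene scores of the 10 libraries. They differed least from each other among all library pairs of a group. In bulk tissue, fewer cells of a type and less RNA per cell cannot be told apart.

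In the comparison of knockout with wild-type ganglia, none of the 9 genes passed an adjusted p of 0.05 in edgeR's quasi-likelihood test over 18005 genes, where 0.467% of all genes did (17 higher, and 67, or 0.372%, lower). At an unadjusted p under 0.05 the count was 3 of 9, namely Ebf1, Ebf2 and Klf7, all lower in the knockout, against 6.73% of all genes lower at that level. Ebf1 and Ebf2 had the steepest differences, at 1.68-fold and 1.90-fold lower levels. Ebf1 was the one gene of the 9 whose libraries did not overlap between genotypes, against 2.92% of all genes with every knockout library below every wild-type library. Of the 9 log2 fold changes 5 were negative and 4 positive, with a median of -0.24 against -0.03 over all genes. By other tools on the same counts, DESeq2 called 1 of the 9 lower (Ebf2), against 1.32% of all genes. Limma-voom called 0 of the 9, against 0.411% of all genes lower. With sample weights limma-voom called 3 lower (Ebf1, Ebf2 and Klf7), against 6% of all genes.

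**Figure D1:**
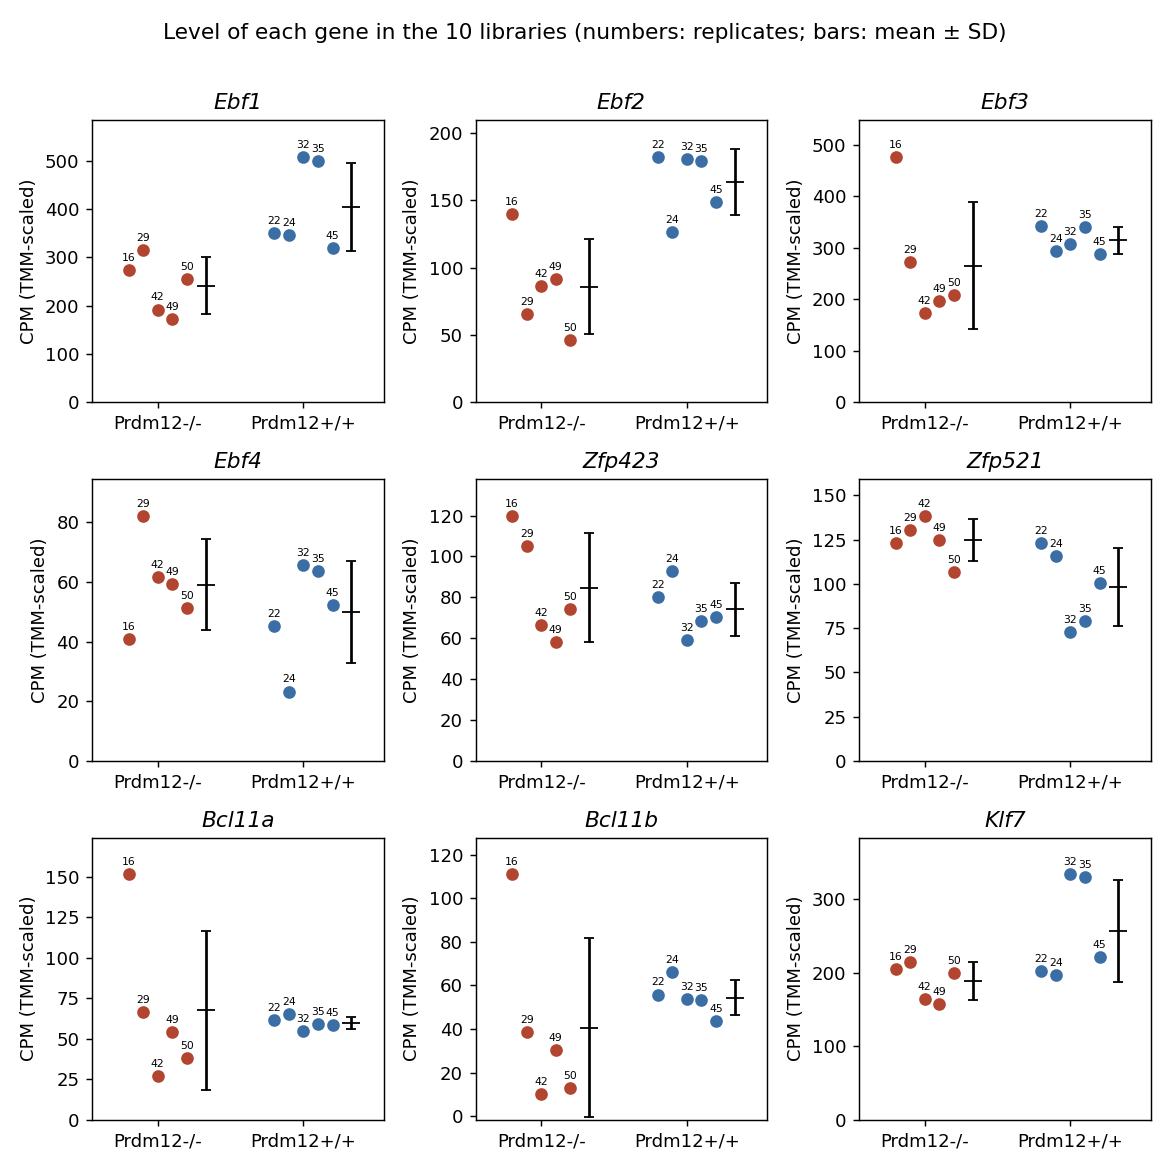
Level of each of the 9 genes in every library, in CPM scaled by TMM factors, with knockout libraries left and wild-type libraries right, replicate numbers beside the points and bars for mean ± SD (n = 5 each). Ebf1 is the gene without overlap, and knockout 16 is the highest point of the knockout group for Ebf2, Ebf3, Zfp423, Bcl11a and Bcl11b.

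Ebf1, a pioneer-type activator of the family, was at 273, 315, 192, 172 and 255 CPM in knockout libraries 16, 29, 42, 49 and 50. In wild-type libraries 22, 24, 32, 35 and 45 it was at 351, 347, 509, 501 and 319 CPM. Every knockout value lay below every wild-type value, although knockout 29 and wild-type 45 were close to each other, and wild-type 32 and 35 stood above the rest. The means were 241 ± 59.0 CPM in knockout ganglia, against 405 ± 91.7 CPM in wild-type ganglia (SD, n = 5 each). The log2 fold change was -0.75 (SE 0.21, 95% interval -1.20 to -0.29), which was not past the threshold (edgeR adjusted p = 0.166). Without both wild-type 32 and 35 it was -0.44 (SE 0.22, edgeR unadjusted p = 0.0689, adjusted p = 0.755). With the mesenchyme score as a covariate it was -0.56 (SE 0.15, edgeR adjusted p = 0.134). With the neuronal score as a covariate it was -0.47 (SE 0.12, edgeR adjusted p = 0.143). The neuronal score was 8.97 ± 0.394 in knockout and 9.33 ± 0.404 in wild-type libraries.

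Ebf2, known from brown fat, bone and cerebellar and olfactory neurons, was at 140, 65.5, 86.5, 91.5 and 46.0 CPM in knockout libraries 16, 29, 42, 49 and 50. Wild-type libraries 22, 24, 32, 35 and 45 had 182, 127, 180, 179 and 149 CPM. Knockout 16 was the sole knockout library inside the wild-type range, and the other 4 lay below all wild types. Means were 85.9 ± 35.1 CPM in knockout ganglia, against 163 ± 24.8 CPM in wild-type ganglia (SD, n = 5 each). The log2 fold change of -0.93 (SE 0.25, 95% interval -1.49 to -0.37) was not past the threshold (edgeR adjusted p = 0.161). Without knockout 16 it was -1.18 (SE 0.21, 95% interval -1.65 to -0.70) and passed (edgeR adjusted p = 0.0472), where 0.333% of all genes were called lower. Over 23 other settings its log2 fold change ran from -1.28 to -0.77, with adjusted p from 0.0166 to 0.670. Of these settings 3 called it lower. Gm6878 and Gm10860, annotated as overlapping Ebf2, averaged 0.379 and 0.262 CPM in the knockout and 0.751 and 1.03 CPM in the wild type. Neither passed the threshold (edgeR adjusted p = 0.545 and 0.225). These levels were low, as 3 counts equal 0.869 CPM in knockout 49.

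Ebf3, expressed in differentiating neurons of many regions, was at 477, 273, 173, 196 and 208 CPM in knockout libraries 16, 29, 42, 49 and 50. The wild-type values, in the order 22, 24, 32, 35 and 45, were 343, 294, 307, 340 and 288 CPM. Knockout 16 lay above all wild types and the other 4 knockout libraries below all of them, so the knockout spread was the wider one. Means were 265 ± 124 CPM in knockout ganglia, against 315 ± 25.6 CPM in wild-type ganglia (SD, n = 5 each). The log2 fold change was -0.24 (SE 0.25, 95% interval -0.80 to 0.31, edgeR adjusted p = 0.686), and without knockout 16 it was -0.56 (SE 0.16, edgeR adjusted p = 0.159). With the central nervous system score as a covariate, an alternative chosen after seeing the data, it was -0.49 (SE 0.26, edgeR adjusted p = 0.540).

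Ebf4, the family member least studied in neurons, was at 40.8 to 82.3 CPM in knockout libraries, with a median of 59.4 CPM. In wild-type libraries it was at 23.3 to 65.6 CPM, with a median of 52.2 CPM. The ranges overlapped widely, wild-type 24 being lowest and knockout 29 highest. Its log2 fold change was 0.24 (SE 0.27, 95% interval -0.35 to 0.83, edgeR adjusted p = 0.7102). Within libraries, the ratio of Ebf4 to Ebf1 counts had a median of 0.261 in knockout libraries, against 0.129 in wild-type libraries. That ratio was above every wild-type library in 4 of 5 knockout libraries, knockout 16 at 0.149 being the exception. The same held for Ebf4 to Ebf2 (medians 0.714 in knockout and 0.350 in wild-type libraries). It also held for Ebf4 to Ebf3 (medians 0.301 and 0.181), again with knockout 16 as the exception.

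**Figure D2:**
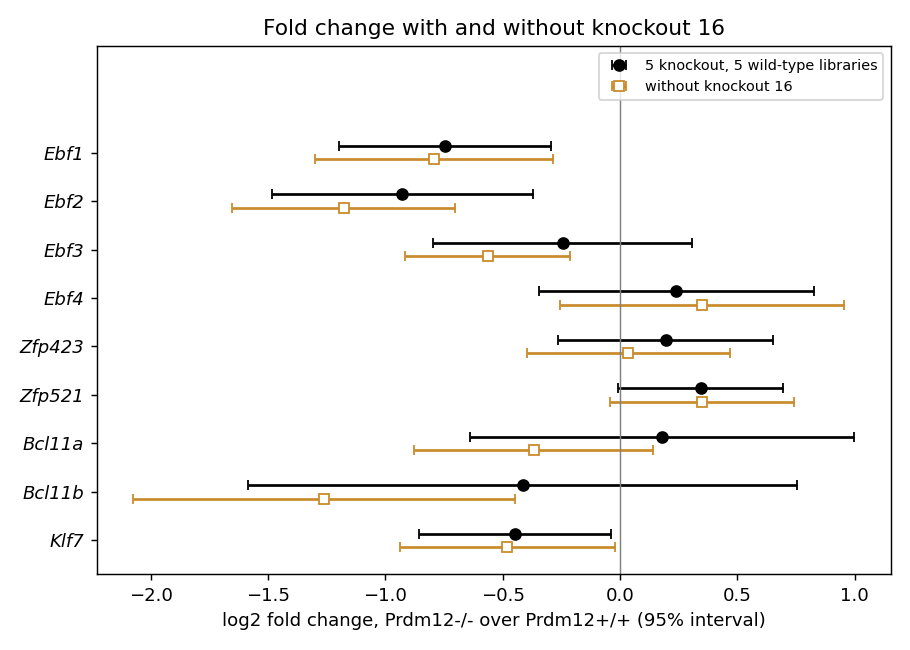
Log2 fold change of each gene, knockout over wild type, with 95% intervals, from all 10 libraries and again without knockout 16. Ebf1 and Ebf2 have intervals below 0 in both fits, as does Klf7, Bcl11a goes to the other side of 0 without knockout 16 and Bcl11b moves to -1.26.

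The Ebf partners Zfp423 and Zfp521 had higher mean levels in the knockout, and neither passed the test. Zfp423 was at 120, 105, 66.4, 57.9 and 74.3 CPM in knockout libraries 16, 29, 42, 49 and 50. Wild-type libraries 22, 24, 32, 35 and 45 had 80.4, 93.1, 59.0, 68.2 and 70.5 CPM. Knockout 16 and 29 lay above all wild types and knockout 49, on 200 counts, slightly below all of them. Its log2 fold change was 0.19 (SE 0.21, 95% interval -0.26 to 0.65, edgeR adjusted p = 0.697).

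Zfp521 was at 123, 130, 139, 125 and 107 CPM in knockout libraries 16, 29, 42, 49 and 50. In wild-type libraries 22, 24, 32, 35 and 45 it was at 123, 116, 72.7, 79.1 and 101 CPM. Wild-type 32 and 35 were lowest, the same libraries that had the lowest mesenchyme and highest neuronal scores and the highest Ebf1 and Klf7. Means were 125 ± 11.8 CPM in knockout ganglia, against 98.2 ± 22.02 CPM in wild-type ganglia (SD, n = 5 each). The log2 fold change was 0.34 (SE 0.16, 95% interval -0.01 to 0.69, edgeR adjusted p = 0.389), and 0.19 without both wild-type 32 and 35. With the mesenchyme score as a covariate it was 0.24 (SE 0.12, edgeR adjusted p = 0.392). With the neuronal score it was 0.21 (SE 0.14, edgeR adjusted p = 0.512).

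Bcl11a, the repressor of fetal globin genes and a factor of spinal sensory circuits, was at 151, 66.6, 27.0, 54.1 and 38.3 CPM in knockout libraries 16, 29, 42, 49 and 50. Wild-type libraries 22, 24, 32, 35 and 45 had 61.3, 65.0, 54.9, 59.0 and 58.7 CPM. Wild-type values were close together, while knockout 16 and 29 lay above all of them and knockout 42, 49 and 50 below. Knockout 29, on 846 counts, and knockout 49, on 187 counts, lay close to the wild-type range. Means were 67.5 ± 49.3 CPM in knockout ganglia, against 59.8 ± 3.69 CPM in wild-type ganglia (SD, n = 5 each). This gave a log2 fold change of 0.18 (SE 0.37, 95% interval -0.64 to 1.00, edgeR adjusted p = 0.861) and went to the other direction, -0.37, without knockout 16 (edgeR adjusted p = 0.478). It was -0.36 (SE 0.33) with the central nervous system score as a covariate.

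Bcl11b, its paralog, was at 111, 38.7, 10.1, 30.4 and 12.9 CPM in knockout libraries 16, 29, 42, 49 and 50. In wild-type libraries 22, 24, 32, 35 and 45 it was at 55.8, 65.9, 53.8, 53.2 and 43.4 CPM. Knockout 16 exceeded all wild types and the other 4 knockout libraries were below all of them. The value of 30.4 CPM in knockout 49 rests on 105 counts, the lowest count of any of the 9 genes in any library. The log2 fold change was -0.41 (SE 0.53, 95% interval -1.59 to 0.76, edgeR adjusted p = 0.753). Without knockout 16 the means were 23.0 ± 13.8 CPM in knockout (n = 4) and 54.4 ± 8.09 CPM in wild-type ganglia (n = 5), with a log2 fold change of -1.26 (SE 0.37, 95% interval -2.08 to -0.45), still not past the threshold (edgeR adjusted p = 0.171). With the central nervous system score as a covariate it was -1.25 (SE 0.54, edgeR adjusted p = 0.461).

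The paralogs were also set against each other within each library. Bcl11b to Bcl11a counts stood at 0.734, 0.582, 0.375, 0.561 and 0.336 in knockout libraries 16, 29, 42, 49 and 50. Wild-type libraries 22, 24, 32, 35 and 45 had ratios of 0.911, 1.01, 0.980, 0.901 and 0.741. The highest knockout ratio, in knockout 16, was just under the lowest wild-type ratio, in wild-type 45, so the groups did not overlap. The other 7 ratios between family members overlapped. This ratio was singled out after its values were seen, so no test is given.

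**Figure D3:**
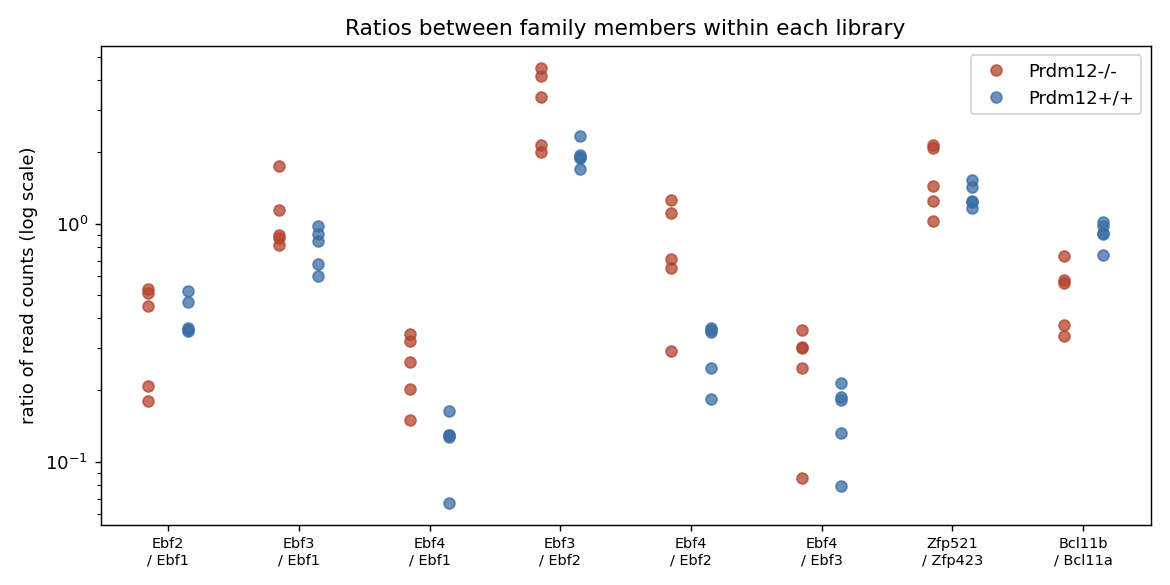
Ratios of read counts between family members within each library, on a log axis, with knockout points left and wild-type points right of each pair. Bcl11b over Bcl11a is the pair without overlap, at 0.336 to 0.734 in knockout and 0.741 to 1.01 in wild-type libraries.

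Klf7 was at 206, 215, 165, 158 and 200 CPM in knockout libraries 16, 29, 42, 49 and 50. Wild-type libraries 22, 24, 32, 35 and 45 had 203, 197, 334, 331 and 222 CPM. Wild-type 32 and 35 stood alone, and the other 3 wild types were close to the upper knockout values. Means were 189 ± 25.8 CPM in knockout ganglia, against 257 ± 69.3 CPM in wild-type ganglia (SD, n = 5 each), with a log2 fold change of -0.45 (SE 0.19, 95% interval -0.86 to -0.04, edgeR adjusted p = 0.344). Without both wild-type 32 and 35 it was -0.09 (SE 0.16, edgeR adjusted p = 0.933). With the mesenchyme score as a covariate it was -0.23 (SE 0.11, edgeR adjusted p = 0.377), and with the neuronal score -0.18 (SE 0.13, edgeR adjusted p = 0.526).

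Of 4 genes reported elsewhere to depend on or be bound by Klf7, 0 were called by edgeR and 0 by DESeq2. At an unadjusted p under 0.05, 1 was lower, against 6.73% of all genes lower. Gap43, a growth cone protein, averaged 639 ± 228 CPM in knockout ganglia, against 974 ± 263 CPM in wild-type ganglia (SD, n = 5 each, edgeR adjusted p = 0.364). L1cam, an axonal adhesion molecule, averaged 468 ± 178 CPM in knockout ganglia, against 512 ± 231 CPM in wild-type ganglia. Cdkn1a, a cell cycle inhibitor, averaged 27.0 ± 5.58 CPM in knockout ganglia, against 32.1 ± 4.98 CPM in wild-type ganglia. Cdkn1b, another such inhibitor, averaged 69.9 ± 6.38 CPM in knockout ganglia, against 71.8 ± 3.29 CPM in wild-type ganglia.

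**Figure D4:**
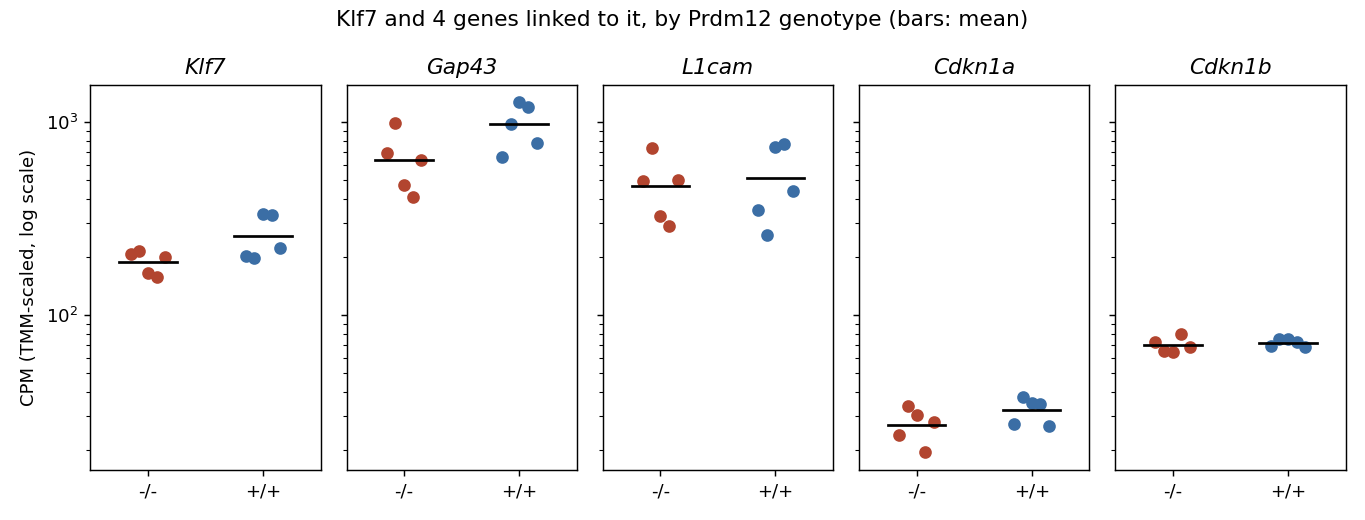
Klf7 and 4 genes linked to it, in CPM on a log axis, with Prdm12-/- libraries left and Prdm12+/+ libraries right in each panel and bars at the means. The ranges of the genotypes overlap for Klf7 and for each of the other 4 genes.

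Levels were compared between genes per kilobase of exon. In the knockout, Ebf3 led with 28.8 ± 13.4 CPM per kb, followed by Ebf1 (24.8 ± 6.05), Klf7 (23.2 ± 3.18), Ebf4 (18.3 ± 4.74), Zfp521 (17.7 ± 1.68), Zfp423 (15.1 ± 4.73), Ebf2 (12.4 ± 5.07), Bcl11a (5.12 ± 3.74) and Bcl11b (5.01 ± 5.08). In the wild type, Ebf1 led with 41.5 ± 9.39 CPM per kb, followed by Ebf3 (34.1 ± 2.77), Klf7 (31.7 ± 8.52), Ebf2 (23.6 ± 3.58), Ebf4 (15.5 ± 5.29), Zfp521 (13.97 ± 3.13), Zfp423 (13.2 ± 2.32), Bcl11b (6.71 ± 0.987) and Bcl11a (4.54 ± 0.280). Ebf2 was thus 7th of the 9 in the knockout and 4th in the wild type. In the knockout order, every pair of neighbours had overlapping ranges of mean ± SD. In the wild type the steps from Zfp423 to Bcl11b and from Bcl11b to Bcl11a had no such overlap, the other steps did, and with the longest transcript as length Bcl11a came above Bcl11b (9.98 against 6.71 CPM per kb in the wild type). With that length Zfp521 also came above Ebf4 in the knockout. The levels of Ebf1, Ebf3 and Bcl11a were then over 1.5 times higher (67.8, 63.0 and 9.98 CPM per kb in the wild type).

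Families and complexes that the 9 belong to or work with had 0 calls by edgeR over all genes. Of 25 other Klf and Sp family genes 21 were tested and 0 called (4 at an unadjusted p under 0.05, 1 by DESeq2), with a median log2 fold change of 0.16. The first of them, Klf1, Klf2, Klf3 and Klf4, had log2 fold changes of 0.63, 1.11, 0.26 and -0.18. Of 13 NuRD subunits 0 were called (1 unadjusted, 0 by DESeq2), the helicases Chd3 and Chd4 being at 0.39 and 0.18 and the deacetylases Hdac1 and Hdac2 at 0.04 and -0.27 on the log2 scale. Of 25 BAF subunits 0 were called (2 unadjusted, 0 by DESeq2), the ATPases Smarca2 and Smarca4 being at 0.37 and 0.26. Of 18 genes of BMP ligands, receptors, Smads and targets 0 were called (3 unadjusted, 0 by DESeq2). In these 4 lists the genes at the unadjusted level were higher in the knockout, apart from 1 lower Klf or Sp family gene. Over all genes 6.73% were lower at that level, and the share higher was not counted. The 1 Klf or Sp family gene called by DESeq2 was higher, against 2.22% of all genes called higher.

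The COUP-TF nuclear receptors, named partners of Bcl11 proteins, were all higher in mean level in the knockout, with 0 of 3 called by edgeR. At an unadjusted p under 0.05, 2 were higher, and DESeq2 called 1 higher, against 2.22% of all genes. Nr2f2 was at 249 ± 47.1 CPM in knockout ganglia, against 157 ± 12.9 CPM in wild-type ganglia (SD, n = 5 each). Every knockout library exceeded every wild-type library (log2 fold change 0.67, SE 0.14, edgeR adjusted p = 0.0726), against 1.29% of all genes that did. Nr2f1 and Nr2f6 had log2 fold changes of 0.41 and 0.71.

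Sensory neuron genes were counted in the same fit. Of 15 nociceptor markers edgeR called 6 lower and 0 higher, against 0.372% of all genes lower and 0.0944% higher. The lower ones were Scn10a, Trpv1, Gal, Runx1, Ret and Prdm12 itself. The list median was -1.50, against -0.03 over all genes. At an unadjusted p under 0.05, 11 markers were lower and 1 higher, and DESeq2 called 8 lower and 1 higher. Of 20 other sensory transcription factors edgeR called Runx1 and Mafa lower and 0 higher, with a median of -0.50 against -0.03 over all genes. At the unadjusted level 7 factors were lower and 2 higher, and DESeq2 called 2 lower and 1 higher. Isl1, a factor common to sensory neurons, averaged 364 ± 100 CPM in knockout ganglia, against 630 ± 233 CPM in wild-type ganglia. Pou4f1 averaged 109 ± 66.8 CPM in knockout ganglia, against 194 ± 54.3 CPM in wild-type ganglia. Pou4f2 and Pou4f3 went the other way, with log2 fold changes of 0.25 and 0.62 (edgeR adjusted p = 0.700 and 0.360). None of these genes passed the threshold. Among 13 mechanoreceptor and proprioceptor markers edgeR called Ntrk2 higher and Mafa lower. Of these markers 4 were higher and 3 lower at the unadjusted level, and DESeq2 called 3 higher and 2 lower. Over all genes 6.73% were lower at the unadjusted level, and DESeq2 called 2.22% higher and 1.32% lower.

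Markers of other tissues had 0 edgeR calls in each list. The counts tested, and those at an unadjusted p under 0.05, were 16 and 4 for general neuronal markers, 14 and 1 for mesenchyme, 12 and 2 for glia, and 9 and 2 for the central nervous system. They were 10 and 9 for endothelium, 10 and 2 for macrophages and 8 and 1 for epithelium. Those at the unadjusted level were all lower in the neuronal and glia lists, against 6.73% of all genes lower. In the other lists they were all higher, and the share of all genes higher at that level was not counted. In these lists DESeq2 called 6 endothelial markers and 1 central nervous system marker higher, against 2.22% of all genes. It called 1 neuronal marker lower, against 1.32% of all genes. Endothelial scores were 5.41 to 6.69 in knockout and 4.46 to 5.65 in wild-type libraries.

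**Figure D5:**
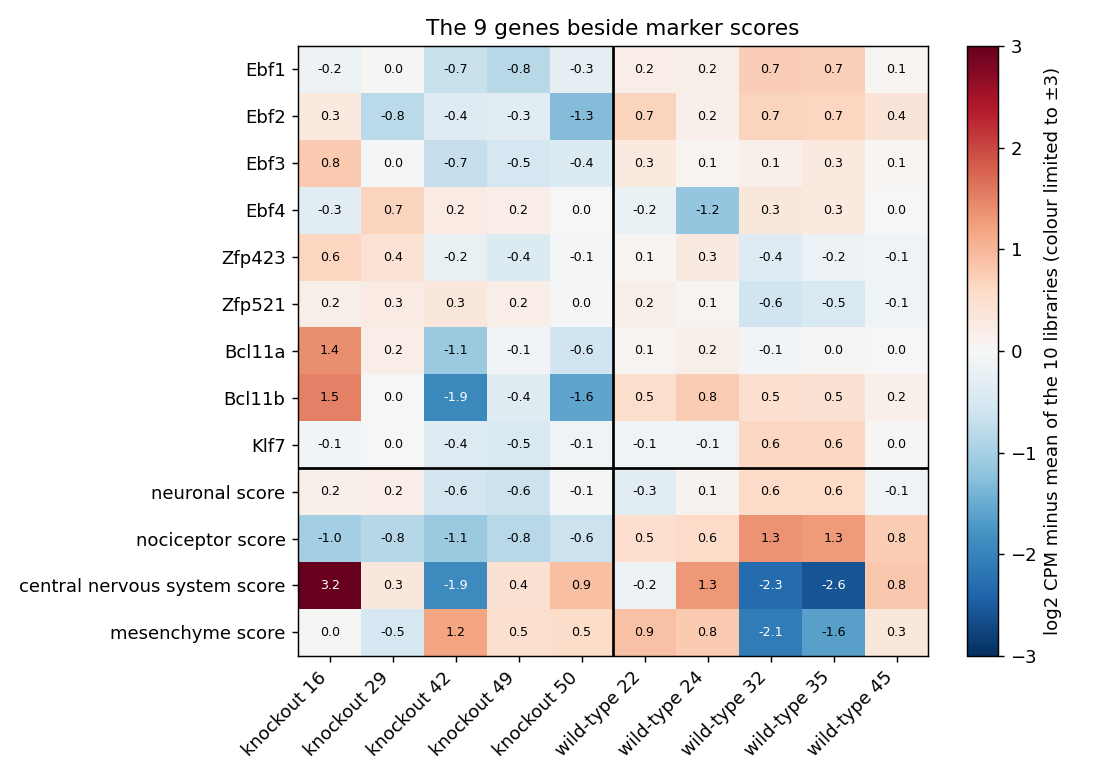
The 9 genes and marker scores as log2 CPM minus the mean of the 10 libraries, with knockout libraries left and wild-type libraries right. Knockout 16 is high in Ebf3, Bcl11a, Bcl11b and the central nervous system score, and wild-type 32 and 35 are high in Ebf1 and Klf7 and low in Zfp521 and the mesenchyme score.

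Across the 10 libraries the 9 genes formed patterns, described here by Pearson r of log2 CPM with no test, since the libraries share genotype, depth and tissue content. Klf7 varied with Ebf1 (r = 0.924) and opposite to Zfp521 (r = -0.909). Bcl11a varied with Bcl11b (r = 0.896) and Ebf3 with both (r = 0.874 with Bcl11a, 0.913 with Bcl11b). With the group means removed, Bcl11a and Bcl11b had r = 0.982 and Klf7 and Ebf1 r = 0.901, while Ebf1 and Ebf2 had r = 0.0177, against 0.613 before. Knockout 16 was the highest library of all for Ebf3, Bcl11a and Bcl11b, and wild-type 32 and 35 were the highest for Ebf1 and Klf7 and the lowest for Zfp521.

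The 3 genes most like each, by r over 10 libraries, were Scrn1, Tbc1d9 and Epn2 for Ebf1 (0.970 to 0.980), and Ccdc66, Elp2 and Gm45902 for Ebf2 (0.916 to 0.936). For Ebf3 they were Sstr2, Meis1 and Sox11 (0.945 to 0.970) and for Ebf4 Cpt1c, Vwa8 and Pnpla6 (0.952 to 0.968). For Zfp423 they were A830082K12Rik, Kdm2b and Nr2f1 (0.938 to 0.950), and for Zfp521 Slit3, Plxnb2 and Foxl2 (0.965 to 0.980). Bcl11a was nearest to Lhx2, Tfap2b and Cartpt (0.933 to 0.979), Bcl11b to Meis1, Peli1 and Wnt3 (0.929 to 0.951), and Klf7 to Tcf25, Tnik and Prkx (0.986 to 0.987). Spearman rho for these genes ran from 0.758 (Klf7 and Prkx) to 0.988 (Klf7 and Tnik, and within the Zfp521 set). None of these genes passed the edgeR threshold.

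The 20 tested genes next to or overlapping the 9 in the RefSeq table had 0 calls by edgeR and 0 by DESeq2. At an unadjusted p under 0.05, 5 were lower and 0 higher, against 6.73% of all genes lower. Limma-voom with sample weights called 4 lower, against 6% of all genes lower. Creb1, a cAMP-response factor next to Klf7, had a log2 fold change of -0.41 (SE 0.13, edgeR adjusted p = 0.227).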

How the data were processed

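The authors deposited raw counts per gene, 1 file per library, with 55414 Ensembl IDs. Per the submitters' processing notes, the tools were featureCounts 1.5.0-p1, STAR 2.7.10a and bcl2fastq 2.20.0.422, and the builds GRCm39 and mm10 are named with no role. Not given in the sources used here are the strand setting, the annotation release and the handling of multiply mapped reads, so reads of paralogs or of genes overlapping on the other strand may be misassigned.

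Symbols matched 52081 IDs. Counts were tested with edgeR 4.0.16 in R 4.3.3 (quasi-likelihood, TMM factors, filterByExpr with minimum count 10, Benjamini-Hochberg over the 18005 genes kept, threshold 0.05), with genotype as the sole term and all 10 libraries. CPM per kb used GENCODE exon lengths (GRCm38). The 9 genes and all gene lists were chosen with earlier results of these data known. One listed gene is not reported here and was left out of the list counts and scores. Genes were named by rule: the 9, the 3 most like each by Pearson r among genes with a mean of at least 1 CPM (log2 CPM, prior count 2), from each list all calls and up to 4 others in list order, and Prdm12; neighbours, marker genes and ratios beyond that were picked after seeing values. Alternatives were RLE and upper-quartile factors, no filter, minimum count 50, DESeq2 1.42.0, limma 3.58.1 (voom, with and without sample weights), libraries left out and marker scores as covariates. The fit was tested on simulated data.

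Counts in the 2 shallow libraries, knockout 29 and 49, carry the most counting error: 3 counts equal 0.236 and 0.869 CPM there and at most 0.107 CPM elsewhere. Libraries of a group were compared by chi-square over genes with at least 200 counts in total; the lowest statistic per gene over 20 pairs was 9.88, between wild-type 32 and 35, above sampling noise, so all were kept. Whether these libraries share an embryo cannot be told from it.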

Additional observations from a re-analysis of the deposited data

Results flagged for a closer look

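In groups of 5 libraries, 1 value standing apart from the rest was looked for in 22 groups, of which chance flags about 1 in 20. Bcl11b in knockout libraries was flagged for knockout 16, at 111 CPM, where the next highest knockout library had 38.7 CPM and the gap took 0.717 of the range. Prdm12 in knockout libraries was flagged for knockout 29, at 42.7 CPM, where the next highest had 17.0 CPM and the gap took 0.756 of the range.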

How the results depend on the processing

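No paired analysis was possible because no replicate number occurs in both genotypes. Over 23 alternatives, 0 of the 9 genes were called higher in any, and Ebf1, Ebf2, Ebf3, Zfp521, Bcl11b and Klf7 kept their direction in all. Genes called lower among the 9 were 1 by DESeq2 and 3 by limma-voom with sample weights, and 0 to 1 with single libraries left out (1 without knockout 16). With sample weights the log2 fold changes were -0.96 for Ebf1 (adjusted p = 0.0151), -1.28 for Ebf2 and -0.62 for Klf7. Ebf2 was -0.88 by DESeq2 and -1.18 to -0.77 with single libraries left out. Ebf4 turned to -0.069 with sample weights. Zfp423 turned to -0.033 without knockout 16, wild-type 32 and wild-type 35, a setting chosen after seeing the data, as was the central nervous system score. Bcl11a turned to -0.084 by limma-voom, -0.40 with sample weights, -0.37 without knockout 16, -0.36 with the central nervous system score and -0.35 without those 3 libraries, and its values ran from -0.37 to 0.38 with single libraries left out. The cause was not tested.

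Counts over all genes moved more, from 17 higher and 67 lower. Genes higher and lower were 55 and 102 with no filter, 399 and 238 by DESeq2, 1264 and 1080 with sample weights, 0 and 19 without wild-type 32 and 35, 5 and 31 with the central nervous system score, and 0 and 14 without those 3 libraries. Genes higher were 6 without knockout 29 and 49, 44 with the mesenchyme score and 47 with the neuronal score. With single libraries left out, 2 to 35 were higher and 27 to 88 lower. Counting error is largest in knockout 49, where Bcl11b rests on 105 counts.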
